A study of Mus musculus with 16 samples.

Results

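The mt-Atp8/6 mRNA is a bicistronic mitochondrial transcript whose 2 reading frames overlap, and 12 of the 302 deposited RNase footprints lay on it. A footprint is a short stretch of RNA that was cut less by added RNases than the nucleotides beside it. Members were all plus-strand footprints of both deposited lists whose largest same-strand overlap, of at least 1 nt, was with the joined transcript at chrM:7766-8607 (mm10). This gave 9 of the 178 footprints called on the control track (5.06%, exact 95% binomial interval 2.34 to 9.38%) and 3 of the 124 called on the knockout track (2.42%, 0.502 to 6.91%). The intervals cover the counting of footprints only. A control-called footprint was found on the control track and was called by the authors as more accessible, relative to its flanks, in the knockout. A knockout-called footprint was found on the knockout track and was called as less accessible there than in the control.

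Heart mitochondria came from male mice aged 12 weeks on a C57BL/6N background, either Lrpprc loxP/loxP controls or Lrpprc loxP/loxP,Cre+ knockouts. The knockout is specific to heart and skeletal muscle, because loss in the whole body is lethal to embryos, and the number of animals behind each library is not given in the sources used here. For digestion, lysates received RNase A (10 U/µl), which cuts after C and U, RNase T1 (0.1 U/µl), which cuts single-stranded RNA after G, or RNase If (0.01 U/µl), which cuts single strands at any base, and 1 library of each genotype was mock-digested. The 4 libraries of a genotype were combined into 1 track, so no value has an error between mice and no test here compares genotypes. The lists hold mitochondrial positions only, so heart markers and sequencing depth could not be checked.

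The mt-Atp8 and mt-Atp6 proteins are subunits of the membrane part of ATP synthase, the enzyme that makes ATP from the proton gradient across the inner mitochondrial membrane. Subunit a, the product of mt-Atp6, forms the proton path together with the ring of c subunits, and the short mt-Atp8 product sits beside it. Both are read from a single mRNA with almost no leader, and the mt-Atp6 frame ends where the mt-Co3 frame begins. The paper states that this mRNA and that of mt-Co3 are often joined in a tricistronic transcript. The mt-Atp6 start codon lies inside the mt-Atp8 frame. LRPPRC is a pentatricopeptide repeat protein that, with its partner SLIRP, keeps mitochondrial mRNAs stable and polyadenylated.

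In the mm10 annotation, mt-Atp8 (ENSMUSG00000064356.3) runs from 7766 to 7969 on the plus strand and holds 68 codons, its stop codon included. The mt-Atp6 frame (ENSMUSG00000064357.1) runs from 7927 to 8607 and holds 227 codons. The upstream tRNA gene mt-Tk ends 1 nt before mt-Atp8, and the last base of mt-Atp6, 8607, is also the first of mt-Co3. All 842 nt of the transcript are therefore coding, with 161 nt read only as mt-Atp8, 43 nt read in both frames (7927 to 7969) and 638 nt read only as mt-Atp6. The stretch read in both frames is shown with 10 nt on each side because it holds both the mt-Atp6 start codon and the mt-Atp8 stop codon, which are in capitals. It and the sequences that follow are the plus strand of the RefSeq mouse mitochondrial genome in mm10, 5′ to 3′, with T for the U of the RNA.
chrM:7917-7979: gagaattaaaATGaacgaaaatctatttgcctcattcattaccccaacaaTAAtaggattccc

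Control-called footprints at 4 places are shown with 10 nt of context, the footprint in capitals, because they are the extremes of the control-called set in position, composition or score: the most 5′ member, the member just upstream of the mt-Atp6 start, the member over the mt-Atp8 stop codon and the member with the lowest C score.
control-called 7818-7833: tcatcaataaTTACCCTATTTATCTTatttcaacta
control-called 7897-7913: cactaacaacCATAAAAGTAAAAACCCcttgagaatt
control-called 7965-7977: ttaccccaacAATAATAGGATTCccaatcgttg
control-called 8385-8397: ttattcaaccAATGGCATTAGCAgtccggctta

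The 3 knockout-called footprints each overlapped the 5′ edge of a control-called footprint or ended just before it. The stretches from the start of the knockout-called to the end of the control-called footprint are shown for this reason, with the control-called footprint in capitals.
chrM:7850-7895: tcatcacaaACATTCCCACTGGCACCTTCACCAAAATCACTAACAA
chrM:8230-8276: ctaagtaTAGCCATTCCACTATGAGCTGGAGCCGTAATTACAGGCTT
chrM:8413-8446: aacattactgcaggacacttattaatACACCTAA

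**Figure D1:**
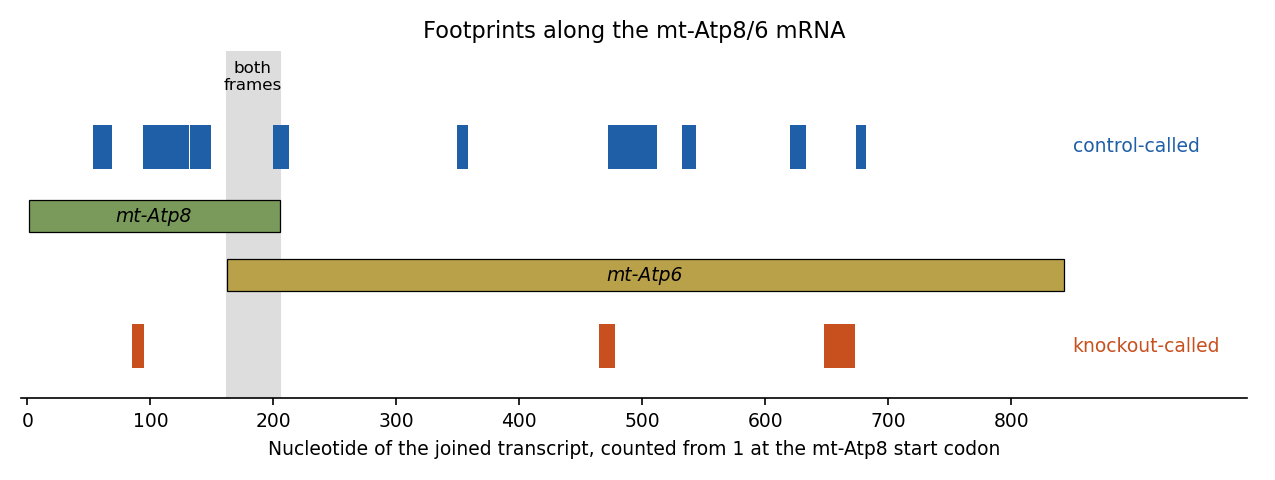
Both reading frames (green, mt-Atp8; yellow, mt-Atp6) and the footprints of each list (blue, control-called; orange, knockout-called), drawn to scale along the transcript in nucleotides from the mt-Atp8 start codon. The grey band marks the 43 nt read in both frames, which only the control-called footprint at 200 to 212 enters, over its 3′ edge.

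Control-called footprints were spread over both frames. In the part read only as mt-Atp8 lay 3 of the 9, and the other 6 lay wholly or mostly in the part read only as mt-Atp6. The first 3 covered 70 of 161 nt (43.5%), which was 18.6 footprints per kb. The mt-Atp6 part had 90 of 638 nt covered (14.1%) and 9.40 footprints per kb. Over the summed length of all mRNAs the same list covered 16.2% of nucleotides and had 9.42 footprints per kb, so the mt-Atp6 part was close to the mRNAs as a whole and the mt-Atp8 part was above that pooled value, a difference that was not tested. Whole mRNAs reached 17.5 per kb in mt-Co1 and 13.2 in mt-Co2, with mt-Co3 between them, and mt-Atp8/6 as a whole had 10.7 per kb. A single footprint of 37 nt supplied most of the 70 nt covered in the mt-Atp8 part. The F score, a measure that is low for a deep footprint, was above the list's median in all 3 footprints of the mt-Atp8 part, and with only the footprints at or below that median the covered share there is 0% and that of the mt-Atp6 part 12.2%, so that the order of the parts turns. The longest of them, at 7859 to 7895, is just above the median, and both round to 0.826.

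Knockout-called footprints were fewer. There was 1 in the mt-Atp8 part, 10 of 161 nt (6.21%), 0 in the stretch read in both frames, and 2 in the mt-Atp6 part, 38 of 638 nt (5.96%). Over the whole transcript they covered 5.70% of nucleotides, against 19.6% for the control-called list. The knockout-called list covered 12.3% of all mRNA sequence, and its density on mt-Atp8/6 was 3.56 per kb, against 5.73 per kb for all mRNAs. Of the 11 mRNAs, with joined frames counted once, only mt-Nd3 had a lower density in this list, with 0 footprints. From RNA-Seq of hearts, the paper reports that every mitochondrial mRNA but mt-Nd6 was less stable without LRPPRC. Whether this bears on the knockout-called counts was not tested.

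Of the 12 mt-Atp8/6 footprints in both lists, 75% were control-called (9 of 12, exact 95% binomial interval 42.8 to 94.5%). This compared with 62.2% of the footprints on all mRNAs (107 of 172, 54.5 to 69.5%) and 58.9% of all footprints (178 of 302). Several single mRNAs were close to it, with 69.2% for mt-Co1 and for mt-Co2 and 68.8% for mt-Co3, and both footprints of mt-Nd3 were control-called. The interval counts the 12 footprints as independent, which neighboring footprints of both lists are not, and the shares were not compared by a test.

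**Figure D2:**
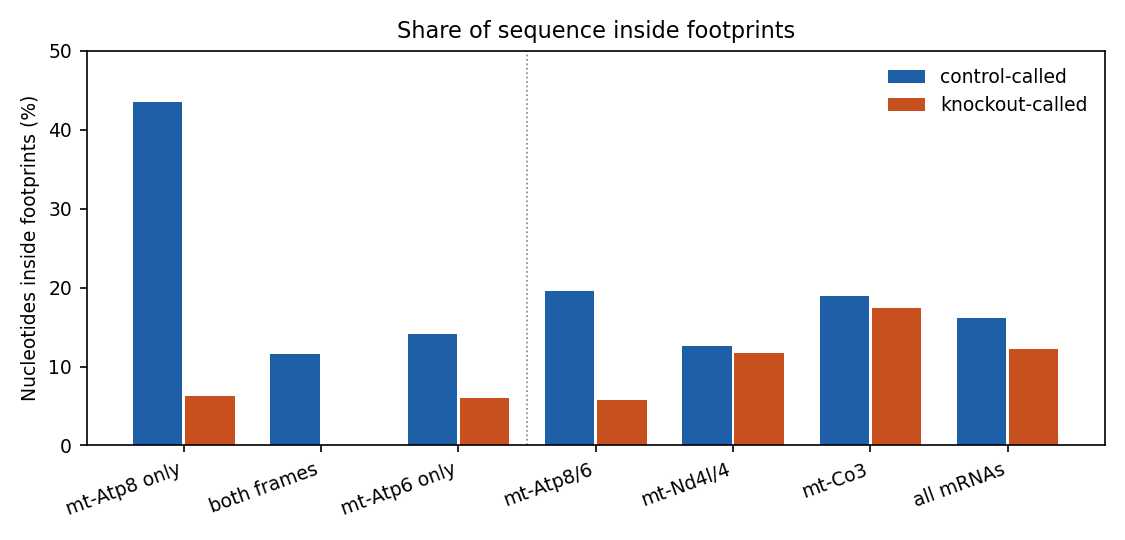
Percent of nucleotides inside control-called (blue) and knockout-called (orange) footprints, for the 3 parts of the transcript left of the dotted line and for whole transcripts and all mRNAs right of it. The mt-Atp8 part stands at 43.5% for control-called and 6.21% for knockout-called footprints, and the stretch read in both frames at 11.6% and 0.

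At the reading frame overlap, the control-called footprint at 7965 to 7977 (13 nt) held all 3 nt of the mt-Atp8 stop codon and covered the last 5 of the 43 nt read in both frames and the next 8 of mt-Atp6. In mt-Atp6 this was codons 13 to 17. The mt-Atp6 start codon at 7927 to 7929 lay outside every listed footprint. The nearest control-called footprint, at 7897 to 7913, ended 13 nt upstream of it, and the nearest knockout-called footprint, at 7850 to 7859, ended 67 nt upstream. Footprints of neither list therefore entered the 51 nt from 7914 to 7964 around the mt-Atp6 start. This does not show that LRPPRC is absent there. By PAR-CLIP, a cross-linking method, in mouse embryonic fibroblasts, the paper placed LRPPRC sites at the 3′ end of mt-Atp8 and the 5′ end of mt-Atp6.

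The outer ends of the transcript were also free of listed footprints. Both lists hold only footprints with a called change, so this does not show that the ends carry none. Uncovered stretches within the transcript reached 136 nt in the control-called list and 370 nt in the knockout-called list. The first 52 nt of the transcript, the mt-Atp8 start codon included, held no control-called and the first 84 nt no knockout-called footprint. At the 3′ end, the last 161 nt held no control-called and the last 170 nt no knockout-called footprint, so that the mt-Atp6 stop codon and the junction with mt-Co3 lay outside both. Just outside the transcript, the next control-called footprints were at 7658 to 7671 in mt-Co2 (F score 1.16), 94 nt upstream, and at 8633 to 8642 in mt-Co3 (F score 0.979), 25 nt downstream. The next knockout-called footprints were at 7702 to 7710 in mt-Tk (F score 0.535), 55 nt upstream, and at 8732 to 8764 in mt-Co3 (F score 1.38), 124 nt downstream. On the minus strand opposite mt-Atp8/6, 0 of 31 control-called and 0 of 31 knockout-called footprints were found. The transcript spans only 842 of the 16299 nt of the genome, so these counts say little.

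The other joined mRNA, mt-Nd4l/4 (9877 to 11544), encodes subunits of complex I and has frames that overlap by 7 nt. It carried 10 control-called and 8 knockout-called footprints, and 0 of either list touched the overlap. Its short upstream frame was the less covered part, with 10 of 290 nt of the part read only as mt-Nd4l inside control-called footprints (3.45%), against 14.7% for mt-Nd4. The mt-Co3 mRNA, which follows mt-Atp6 and encodes a cytochrome c oxidase subunit, carried 11 control-called and 5 knockout-called footprints, which covered 18.9% and 17.5% of its 784 nt.

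Each footprint has a central C score, the mean over its centre of a log10 ratio that sets the highest of the RNase A, T1 and If coverages at a position against the mock coverage, and an F score, the central ratio over that of the left flank plus that over the right flank, each flank being 3 nt. The lower the F score, the less accessible the centre was than its flanks. From these deposited values the ratio of centre over mock (10 to the power of C) and the harmonic mean of the flank ratios (2 times the centre ratio over F) follow directly. The lists were filtered on a change of the F score between the tracks. For candidate footprints the paper also required a central C score that was higher in the experiment than in the control. Both scores therefore describe the members and are not evidence of a difference between genotypes.

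Upstream of the mt-Atp6 start, 2 of the 3 control-called footprints had centres close to the mock level and the other was below it. The footprint at 7818 to 7833 (mt-Atp8 codons 18 to 23) had a C score of 0.0113 and an F score of 0.985, with the centre at 1.03 times and the flanks at 2.08 times mock. The longest of the 3, at 7859 to 7895 (codons 32 to 44), had a C score of 0.0297 and an F score of 0.826, with the centre at 1.07 and the flanks at 2.59 times mock. After a gap of 1 nt, the footprint at 7897 to 7913 (codons 44 to 50) had a C score of -0.0994 and an F score of 1.04, with the centre at 0.795 and the flanks at 1.53 times mock. The flanks of all 3 were above the mock level. So were most in the control-called list, whose flanks had a lower quartile of 1.73 and a lowest value of 0.751 times mock.

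From the mt-Atp8 stop codon on, all 6 C scores were below 0, from just under the mock level to well under it. The stop codon footprint at 7965 to 7977 had a C score of -0.295 and an F score of 0.513, the lowest of the 9 and rank 11 of 178 from the lowest in the list, with the centre at 0.507 and the flanks at 1.98 times mock. The footprint at 8114 to 8122 (mt-Atp6 codons 63 to 66) had a C score of -0.242 and an F score of 0.646. At 8237 to 8276 (codons 104 to 117) the footprint was 40 nt long, the upper limit of the authors' search, and had a C score of -0.115 and an F score of 0.733. These 3 members all had flanks above mock, at 1.98, 1.77 and 2.10 times, beside a median of 2.22 times for the whole control-called list.

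The footprint at 8297 to 8308 (mt-Atp6 codons 124 to 128) had a C score of -0.00673 and an F score of 0.848, with the centre near the mock level at 0.985. The lowest C score belonged to the footprint at 8385 to 8397 (codons 153 to 157), at -0.525, rank 5 of 178, with an F score of 0.518. Its centre was at 0.298 and its flanks at 1.15 times mock, the lowest values of the 9 for both. The shortest member, at 8439 to 8446 (8 nt, codons 171 to 174), had a C score of -0.350 and an F score of 0.590.

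The F scores of the mt-Atp8 members ran from 0.826 to 1.04 and those of the 6 downstream members from 0.513 to 0.848, so that the ranges overlapped only through the footprints at 7859 to 7895 and 8297 to 8308. The C scores ran from -0.0994 to 0.0297 upstream and from -0.525 to -0.00673 downstream. This division along the transcript was seen after the values were known and was not tested.

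**Figure D3:**
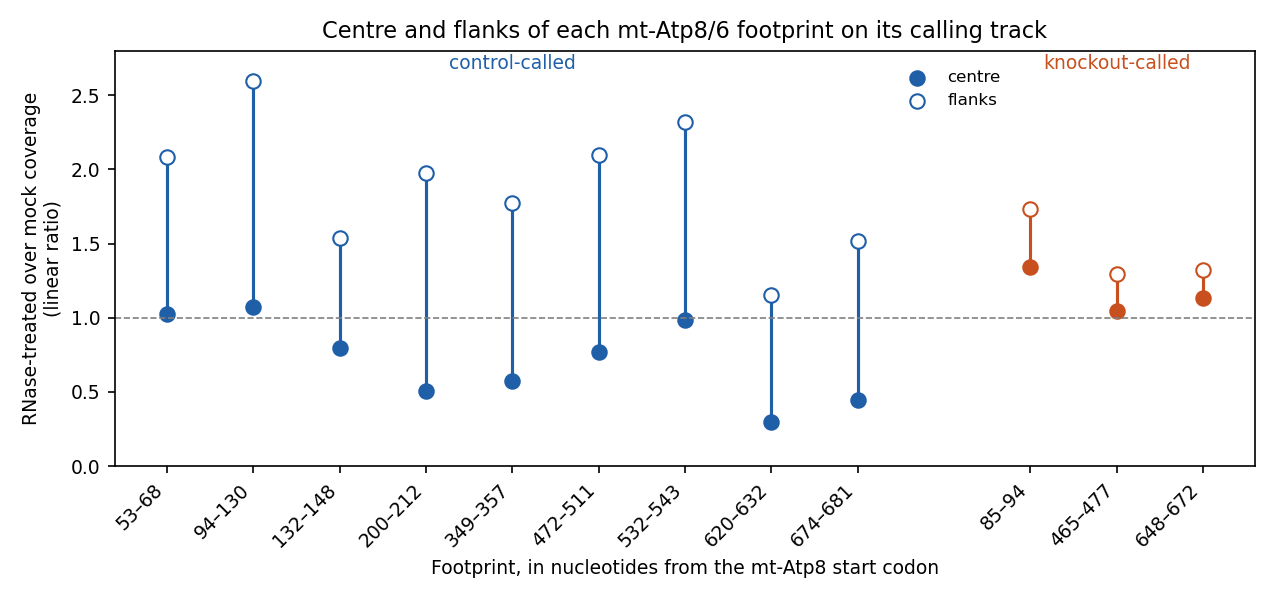
Linear ratio of RNase-treated over mock coverage at the centre (filled) and in the flanks (open, harmonic mean of both sides) of each footprint on the track it was called on, in order along the transcript; the dashed line marks the mock level. Control-called centres reach from 0.298 to 1.07 and their flanks from 1.15 to 2.59, while knockout-called centres lie between 1.04 and 1.34 and their flanks between 1.29 and 1.73.

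Against their own list, the 9 control-called members had a median F score of 0.733 and a median C score of -0.115, beside 0.826 and -0.0272 for all 178 footprints and 0.827 and -0.0744 for the 107 on mRNAs. A C score below 0, where the mock library had the higher coverage, was found in 7 of the 9, beside 61.8% of the list and 72.0% of its footprints on mRNAs. The members' median length was 13 nt and that of the list 16 nt, while by means the order turned, with 18.3 nt for the members and 17.9 nt for the list. The SD over the 9 members was 0.193 for the F score and 0.189 for the C score.

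The 3 knockout-called footprints had F scores near the top of their list. At 7850 to 7859 (mt-Atp8 codons 29 to 32) the C score was 0.127 and the F score 1.55, with the centre at 1.34 times mock. At 8230 to 8242 (mt-Atp6 codons 102 to 106) the C score was 0.0179 and the F score 1.61, with the centre at 1.04 times mock. At 8413 to 8437 (mt-Atp6 codons 163 to 171) the C score was 0.0550 and the F score 1.72, with the centre at 1.13 times mock. In order of F score from the lowest, these were 105, 111 and 115 of 124, and the list's median was 1.27. On mRNAs the F scores of this list were higher as a whole, with medians of 1.36 for all mRNAs and 1.53 for mt-Co3, and mt-Nd4l/4 between them, beside 1.61 for the 3 members. A C score below 0 was found in 0 of the 3, beside 23.4% of the list but only 4.62% of its footprints on mRNAs. Each centre stood at between 0.773 and 0.858 of its flanks.

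**Figure D4:**
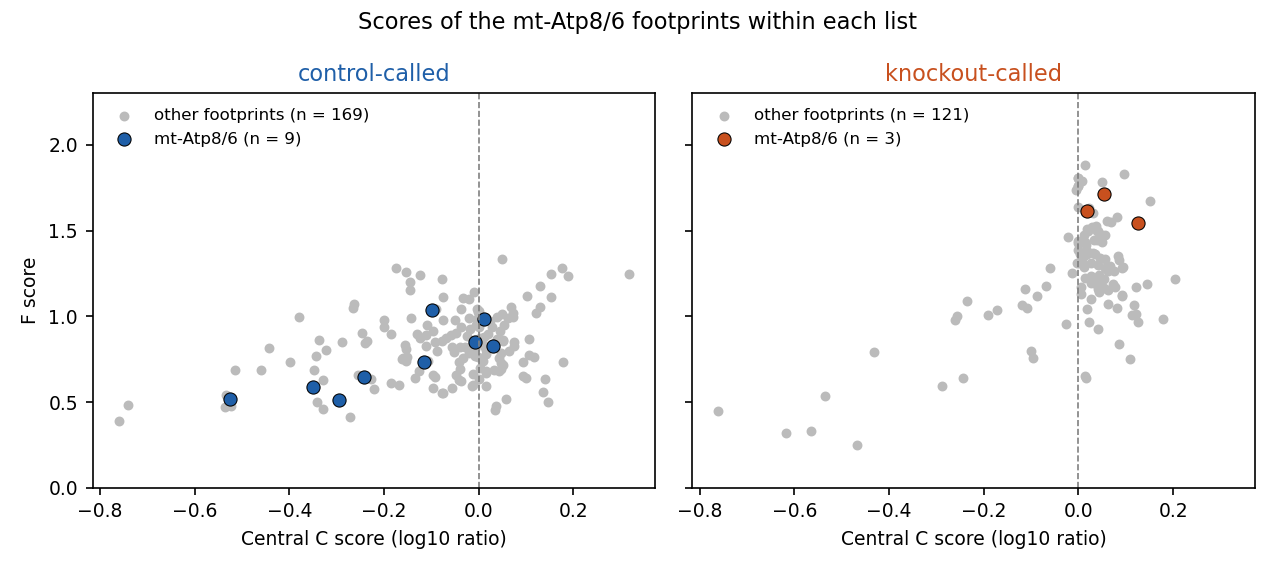
Central C score against F score for every control-called (left) and knockout-called (right) footprint, with mt-Atp8/6 members in color and the others in grey; the dashed line marks a C score of 0. The control-called members spread from -0.525 to 0.0297 on the C score axis, and the 3 knockout-called members lie right of 0 with F scores between 1.55 and 1.72.

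Positions in both lists were then set side by side. The knockout-called footprint at 7850 to 7859 shared 1 nt, position 7859, with the control-called footprint at 7859 to 7895. The knockout-called footprint at 8230 to 8242 shared 6 nt with the control-called footprint at 8237 to 8276. The third, at 8413 to 8437, ended 1 nt before the control-called footprint at 8439 to 8446. Thus 2 of 9 control-called members shared at least 1 nt with a knockout-called footprint, beside 31.5% of the control-called list and 30.8% of its footprints on mRNAs. Likewise 2 of 3 knockout-called members did so, beside 42.7% of the knockout-called list and 47.7% of its footprints on mRNAs.

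In all 3 cases the knockout-called centre held nucleotides of the 5′ flank of the control-called footprint, namely 3, 3 and 2 of its 3 nt, a count chosen after the positions were seen. Over the whole knockout-called list 32.3% of footprints did so, and 38.5% of those on mRNAs. The 3′ flank of a control-called footprint was held by 0 of 3 members, by 29.0% of the list and by 33.8% of its footprints on mRNAs. These flank nucleotides enter the F score of the control-called footprint directly, so the calls of the 2 lists at such a site rest partly on the same nucleotides and are not independent. The other 6 control-called members, at 7818, 7897, 7965, 8114, 8297 and 8385, lay between 15 and 107 nt from the nearest knockout-called footprint of the transcript.

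The transcript is rich in A and poor in G, and control-called footprints held more G and less T than it, while knockout-called footprints held more A and less C and T. The differences were not tested. Those of the knockout-called footprints rest on 48 nt and were smaller with the 3 nt on each side included, at 36.4% A, 24.2% C and 28.8% T. The transcript is 35.4% A, 26.2% C, 8.91% G and 29.5% T. Inside control-called footprints the shares were 35.8% A, 27.9% C, 12.1% G and 24.2% T, and inside knockout-called footprints 41.7% A, 22.9% C, 10.4% G and 25% T. Single members differed widely. The footprint at 7818 to 7833 consisted of C and T in 13 of 16 positions and held 0 G, the base after which RNase T1 cuts. The footprint at 7897 to 7913 held 10 A among 17 nt, and that at 8114 to 8122 held only 2 pyrimidines, where RNase A could cut, in 9 nt. The long footprint at 8237 to 8276 held 9 G and 21 pyrimidines in 40 nt. The higher share of G in control-called footprints rested on it, as no other control-called member held more than 3. Without it the share of G was no higher than in the transcript.

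Pairing predicted from sequence alone, with the partition function of RNAfold over the transcript, is a calculation and not a measurement of these samples. The mean probability of being unpaired was 0.603 over the transcript, 0.706 in the mt-Atp8 part, 0.587 in the stretch read in both frames and 0.578 in the mt-Atp6 part. It was 0.637 inside and 0.594 outside control-called footprints, and 0.578 inside and 0.604 outside knockout-called footprints. The size of both differences depended on the fold. With pairing limited to a local window the values were 0.610 and 0.599 for control-called and 0.529 and 0.605 for knockout-called footprints. The 3 control-called members in mt-Atp8 lay in sequence predicted to be mostly unpaired, at 0.824, 0.832 and 0.858, all above the mean of that part. Downstream, members lay on both sides of the mt-Atp6 mean of 0.578, with 8237 to 8276 (40 nt) at 0.439 and 8297 to 8308 at 0.745. The higher pooled value inside control-called footprints was therefore not a trait of both parts. The most paired members were those at 7965 to 7977, at 0.347, and at 8385 to 8397, at 0.266. These are also the members with the lowest and next lowest F score, 0.513 and 0.518, among 9 footprints of the same mRNA and track. The members next in order of F score, at 8439 to 8446 (0.590) and 8114 to 8122 (0.646), lay in sequence predicted to be mostly unpaired, at 0.711 and 0.717.

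**Figure D5:**
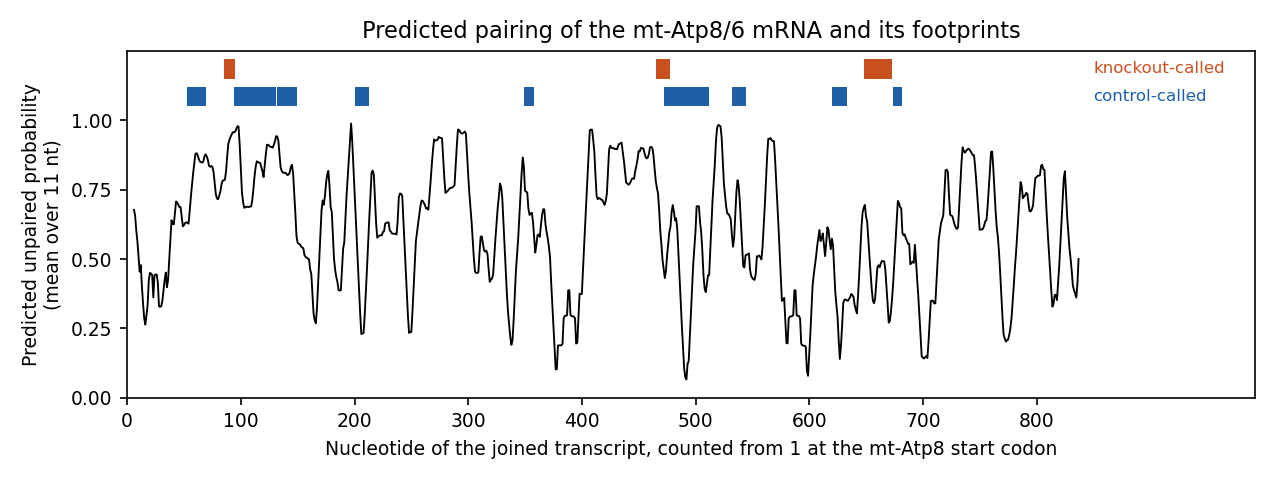
Predicted probability of being unpaired along the transcript (black line, mean over 11 nt) with the control-called (blue) and knockout-called (orange) footprints above it, in nucleotides from the mt-Atp8 start codon. The mt-Atp8 part is the more open, with a mean of 0.706, and the control-called footprints at 200 to 212 and 620 to 632 sit over paired stretches.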

How the data were processed

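RNase footprinting gave 4 libraries for each Lrpprc genotype; the Slirp libraries were not analysed here. Reads of technical replicates were combined by the authors, adapters were removed (cutadapt 1.10), pairs were mapped to mm10 with Bowtie2, and 5′ coverage, scaled to library size, gave the C and F scores. A count of 1 is added to both terms of the C score, which draws it toward 0 where coverage is low. Coverage is not in these lists, so depth is unknown, also for the knockout, where the paper reports reduced mRNA stability. The deposited name column of each list holds the length, central C score (log10 ratio) and F score of the calling track, pooled over libraries. Another column of each of the 2 files holds the authors' log2 fold change of the F score and was not used.

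Footprints were assigned with the GENCODE annotation of mm10. Each member is named by position. No test was run. Shares have exact Clopper-Pearson intervals. Interval functions were tested on simulated data. Python 3.11.15, SciPy 1.17.1, Matplotlib 3.10.9 and ViennaRNA 2.7.2 (37 °C) were used. Alternatives covered membership, length, flanks, a stricter F score, the comparison set and the fold. Members and lists were chosen with earlier results of these data known.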

Additional observations from a re-analysis of the deposited data

How the results depend on the processing

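Alternative settings were tried on 24 values, of which the count of 5′ flank contacts had only the 2 alternatives given last. Of the 67 settings for the other values, 54 left the value within a set limit. The limit was 1.5 times for counts, the exact binomial interval for shares and 1 SD over members for differences. For covered shares that interval takes each nucleotide as independent, which nucleotides of 1 footprint are not. Another 12 moved the value further and 1 turned its sign. With F scores limited to the median of the list or below, control-called members fell to 5 and knockout-called members to 0, so that (with the 37 nt footprint at 7859 to 7895 left out by a margin below rounding) the covered share of the mt-Atp8 part became 0 for both lists and that of the mt-Atp6 part 0 for the knockout-called list. With the 3 nt on each side included, control-called coverage became 51.6% of the mt-Atp8 part and 19.3% of the mt-Atp6 part, and the deficit of C and U in knockout-called members against the transcript went from -7.78 to -2.67 percentage points. With footprints of at least 10 nt, the mt-Atp6 part was covered to 11.4%. By its midpoint, 0 control-called footprints lay in the stretch read in both frames. With 50% of the shorter footprint as the least overlap, 0 control-called members overlapped a knockout-called one. The members' length minus that of the rest of the control-called list was -3 nt by medians and 0.499 nt by means. Against other mRNAs, that of knockout-called members was -10 nt in place of -1 nt. Some values within those limits also moved by over 1.5 times. With the 3 nt on each side, control-called coverage of the stretch read in both frames was 18.6% (11.6% without) and knockout-called coverage of the mt-Atp8 part 9.94%. Against other mRNAs only, the control-called difference was -0.0506 in median C score (-0.0941 against the whole rest) and -1 nt in length. By means, the knockout-called differences were 0.0775 in C score (0.0290 by medians) and -2.67 nt. With the local fold, the unpaired probability inside minus outside went from 0.0428 to 0.0108 for control-called and from -0.0265 to -0.0766 for knockout-called footprints. The cause was not tested. The 2 alternatives added after the data were seen left the count of 5′ flank contacts within 1.5 times. No paired analysis was possible because each genotype has 1 track and the labels carry no replicate numbers.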
